A study of Mus musculus with 2 samples.

Results

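The Mir29 family comprises the 4 mouse genes Mir29a, Mir29b-1, Mir29b-2 and Mir29c, chosen by symbol from the 2202 annotated microRNA genes counted in this study. Small RNA libraries with inserts under 30 nt had been sequenced from gastrocnemius, a calf muscle, of male B6CASTF1/J pups at 4 days of age. The labels give 1 group of 2 libraries, replicate 2 (animal 4) and replicate 1 (animal 3), from separate biosamples under a shared donor identifier. No second condition, treatment or genotype exists, so the only contrast is replicate 2 over replicate 1, and no further libraries show the spread between animals.

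MicroRNAs of the Mir29 family bind target messenger RNAs through a shared seed, the stretch near the 5′ end of the mature strand that pairs with the target. In mouse heart and fibroblasts they are known as repressors of collagen and other extracellular matrix genes, and in mouse myoblasts miR-29 promotes differentiation. The family is made from paired genes: Mir29a with Mir29b-1, and Mir29b-2 with Mir29c. Collagen messenger RNAs were not measured here.

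The 3 distinct mature 3′ strands are shown first because all members share a seed and differ in only a few other bases. Sequences are from RefSeq (GRCm38.p6, the mm10 assembly), 5′ to 3′, with the seed (bases 2 to 8) in capitals. All 4 genes were found in that table.
miR-29a-3p (chr6:31062673-31062694, minus strand): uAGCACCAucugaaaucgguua
miR-29b-3p (Mir29b-1, chr6:31063025-31063047, minus strand; Mir29b-2, chr1:195037091-195037113, plus strand): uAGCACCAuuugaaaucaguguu
miR-29c-3p (chr1:195037600-195037621, plus strand): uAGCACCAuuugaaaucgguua

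Among 1738 mature entries in the table, 4 carried the seed AGCACCA, 1 from each member gene, and no other gene had it. Counted from 1 at the 5′ end, miR-29a-3p and miR-29c-3p differed by the single substitution C10U. From miR-29a-3p to miR-29b-3p there were 4 substitutions, C10U, G18A, U21G and A22U, and miR-29b-3p has 1 further base at its 3′ end. The 3′ end of miR-29b-3p holds the letters AGUGUU, known in human cells as a signal for import into the nucleus. On the mature strand, 12 of 1679 distinct mature forms (0.715%) held these letters, and miR-29a-3p and miR-29c-3p did not.

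The full hairpins are shown next because the deposited counts are per hairpin and reads that map to several places were set aside. Capitals mark bases lying in a 22 nt stretch that is also present in another annotated microRNA gene.
Mir29a (chr6:31062660-31062747, minus strand): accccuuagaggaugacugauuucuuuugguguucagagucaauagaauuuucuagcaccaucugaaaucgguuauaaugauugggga
Mir29b-1 (chr6:31063023-31063093, minus strand): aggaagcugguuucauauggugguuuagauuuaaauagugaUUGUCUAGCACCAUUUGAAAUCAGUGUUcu
Mir29b-2 (chr1:195037040-195037120, plus strand): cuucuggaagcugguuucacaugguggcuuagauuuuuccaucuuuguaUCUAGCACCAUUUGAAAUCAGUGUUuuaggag
Mir29c (chr1:195037547-195037634, plus strand): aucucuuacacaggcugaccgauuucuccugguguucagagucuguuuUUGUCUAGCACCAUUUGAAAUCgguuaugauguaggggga

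The hairpins differ in how far a read can be placed. Mir29a shared 0 of its 67 stretches of 22 nt with another annotated microRNA gene. Mir29c shared 1 of 67, a stretch running from the loop into the mature strand, and the complete miR-29c-3p sequence was in no other annotated microRNA gene. The complete miR-29b-3p sequence lay in both Mir29b-1 and Mir29b-2, so a full-length read of it cannot be assigned to either gene. Counts of Mir29b-1 and Mir29b-2 are therefore uncertain and leave out full-length reads of that strand.

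The opposite (5′) strands of the Mir29b hairpins can be told apart, and are shown with the differing bases of their aligned part in capitals.
miR-29b-1-5p: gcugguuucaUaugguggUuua
miR-29b-2-5p: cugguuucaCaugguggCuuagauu
They differed at 2 of 21 aligned bases. Which stretch of a hairpin the counted reads came from is not recorded in counts per gene. Over the whole hairpin, Mir29a and Mir29c were 78.0% identical and Mir29b-1 and Mir29b-2 were 73.2% identical, while the other pairs of members ran from 55.9% to 63.2%. Each gene was thus most like a member of the other cluster, not like its own neighbour.

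In GENCODE M21, Mir29a and Mir29b-1 lie on the minus strand of chromosome 6 with 275 bases between them. Mir29a overlaps no other annotated gene, and Mir29b-1 overlaps an exon of the noncoding gene Gm27019 by 2 bases. Mir29b-2 and Mir29c lie on the plus strand of chromosome 1 with 426 bases between them, wholly within an exon of the noncoding gene A330023F24Rik. On the opposite strand that region is an annotated untranslated region of Cd46, which encodes a complement regulator. The antisense counts of the 4 members were 0 in both libraries, and the unstranded counts equalled the sense counts.

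The libraries stood apart, which touches every result below. Sense reads assigned to microRNA genes numbered 3073086 in replicate 2 and 4458853 in replicate 1, and reads set aside for mapping to several places made up 45.1% and 35.7% of all reads. Mir206, a microRNA restricted to skeletal muscle, had 101 reads in replicate 2 and 652657 in replicate 1. The heart-restricted Mir208a had 29718 reads in replicate 2 and 59 in replicate 1. The defining marker of the labelled muscle was thus nearly absent from replicate 2, and the libraries are named by their labels only. A difference between animals and a difference in the tissue sampled cannot be told apart for any value of replicate 2 over replicate 1. The summed level of the 7 skeletal muscle markers was 572 CPM (counts per 1000000 sense microRNA reads) in replicate 2 and 146602 CPM in replicate 1, with reads for 7 of 7 in each. Mir206 carried that gap: without it the other 6 summed to 540 CPM in replicate 2 and 229 CPM in replicate 1. Mir486 alone held 478 and 102 CPM of these sums, while Mir133b went the other way, with 3.25 and 95.8 CPM. Of the 6 markers tested, 1 (Mir486) was higher and 3 (Mir206, Mir133b and Mir133a-1) were lower, by the threshold given below for Mir29a. Over all 410 tested genes, 17.6% were higher and 36.1% lower, the background for each marker count in this paragraph. Counts of Mir486, Mir133a-1 and Mir133a-2 are uncertain, since a 22 nt stretch of each recurs in another microRNA gene. For Mir1a-1 and Mir1a-2 this was not checked. The sums leave out reads that map to several places. The 2 markers of heart and slow muscle, Mir208b and Mir499, were both higher, with a replicate 2 sum of 4221 CPM against 678 CPM in replicate 1. For endothelium, Mir126a had 66160 and 25417 CPM, and the 2 smooth muscle markers summed to 49013 and 21681 CPM, in replicate 2 and replicate 1, and none of these 3 passed the threshold. The 4 fibroblast markers summed to 2807 CPM (3 with reads, Mir199a-1 at 0) and 5906 CPM (4 with reads). Mir214 alone held 2784 and 5787 CPM of these sums. For red blood cells, the 2 markers summed to 979 and 220 CPM and both were higher. The 5 white blood cell markers summed to 4294 and 793 CPM but went different ways. Mir150, Mir155 and Mir146 were higher, Mir223 (112 and 163 CPM) was lower, and Mir142 did not pass the threshold. In tissue libraries, a change in the number of cells of a type and a change in RNA per cell cannot be told apart.

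Mir29a, the most abundant member, had 2316 reads in replicate 2 and 336 in replicate 1. These are 754 CPM (exact Poisson 95% interval 723 to 785) in replicate 2 and 75.4 CPM (67.5 to 83.9) in replicate 1. It ranked 80 among all genes in replicate 2 and 190 in replicate 1. Its level was 6.46-fold higher in replicate 2 after scaling by the trimmed mean of M values (TMM), a log2 ratio of 2.69 (95% counting interval 2.53 to 2.86).

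Mir29a was past the threshold, an adjusted p under 0.05 with an absolute log2 ratio of at least 1 in the two-sided exact binomial test, its p being too small to be stored. Against a background of 17.6% of 410 tested genes called higher and 36.1% called lower, 1 of 4 members was higher and 0 were lower. A higher log2 ratio than that of Mir29a was found for 19 of the 410 genes. The test compares 2 libraries and measures counting noise only: with the spread of the pair pooled over genes, the exact test of edgeR called 0 of 410 genes, 28 had an unadjusted p under 0.05, and Mir29a had p = 0.331.

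Mir29c, whose mature strand differs from that of Mir29a by the C10U substitution, had 163 reads in replicate 2 and 124 in replicate 1. Its level was 53.0 CPM (45.2 to 61.8) in replicate 2 and 27.8 CPM (23.1 to 33.2) in replicate 1, at ranks 179 and 223. The CPM intervals did not overlap, but the TMM log2 ratio of 0.30 had an interval of −0.041 to 0.65 and did not pass the threshold (exact binomial test with Benjamini-Hochberg adjustment, adjusted p = 0.0950). Its adjusted p was 0.0011 under DESeq2 size factors and 9.3e-08 under total reads, with log2 ratios of 0.58 and 0.93, still short of 1.

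Mir29b-1 had 22 reads in replicate 2 and 11 in replicate 1, or 7.16 CPM (4.49 to 10.8) and 2.47 CPM (1.23 to 4.41), intervals that narrowly missed each other. Its log2 ratio of 0.85 (−0.20 to 2.10) did not pass (exact binomial test with Benjamini-Hochberg adjustment, adjusted p = 0.139), but under DESeq2 size factors (1.12) and under total reads (1.44) it was called higher, as were 24.4% and 32.9% of all tested genes. Mir29b-2 had 7 reads in each library, 2.28 CPM (0.916 to 4.69) in replicate 2 and 1.57 CPM (0.631 to 3.23) in replicate 1. Its log2 ratio of −0.078 (−1.83 to 1.65) allows a difference in either direction, and it turned positive under those scalings (0.17 and 0.47). At this depth no difference was detectable for Mir29b-2.

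**Figure D1:**
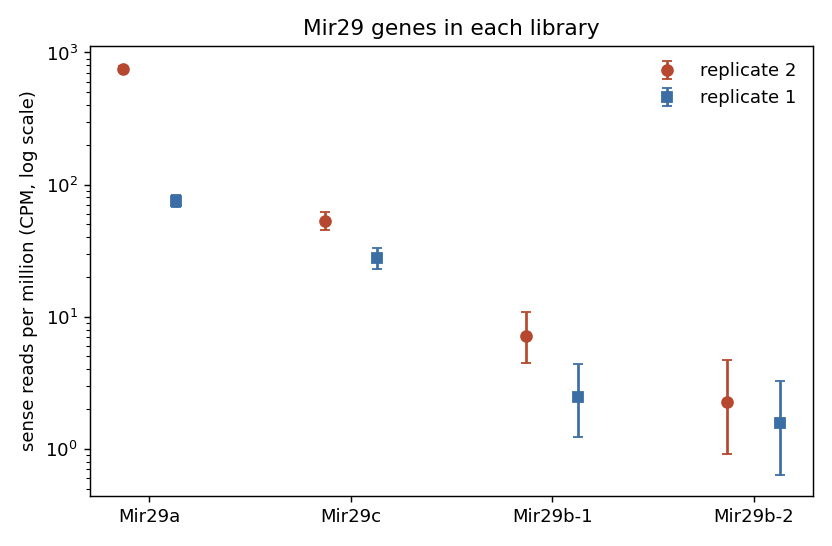
Level of each Mir29 gene in replicate 2 (circles) and replicate 1 (squares), in CPM of sense reads on a log axis, with exact Poisson 95% intervals that cover counting error only. Mir29a stood at 754 and 75.4 CPM, the widest gap of the 4 genes, while the intervals of Mir29b-2 overlapped.

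The order of the members by uniquely mapped reads was the same in both libraries: Mir29a, then Mir29c, then Mir29b-1, then Mir29b-2. The place of the Mir29b genes leaves out full-length miR-29b-3p reads, which map to both. Neighbouring levels were separated beyond their counting intervals except for Mir29b-1 and Mir29b-2, whose intervals overlapped in both libraries. A small RNA read spans a whole mature strand, so these levels were not divided by length. Per 100 nt of hairpin the values ran from 856 to 2.81 CPM in replicate 2 and from 85.6 to 1.94 CPM in replicate 1, in the same order.

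The family as a whole held 0.0816% of sense microRNA reads in replicate 2 (2508 reads, exact Clopper-Pearson 95% interval 0.0784 to 0.0849%) and 0.0107% in replicate 1 (478 reads, 0.00978 to 0.0117%). The share was 7.61-fold higher in replicate 2. These shares leave out reads of miR-29b-3p that map to both Mir29b genes.

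The make-up of the family also differed between the libraries. Mir29a supplied 92.3% of family reads in replicate 2 (91.2 to 93.4%) and 70.3% in replicate 1 (66.0 to 74.4%). Mir29c supplied 6.50% (5.57 to 7.54%) and 25.9% (22.1 to 30.1%), and the Mir29b genes together 1.16% (0.776 to 1.66%) and 3.77% (2.25 to 5.89%). Grouped by locus, the Mir29a and Mir29b-1 cluster held 93.2% of family reads in replicate 2 and 72.6% in replicate 1.

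**Figure D2:**
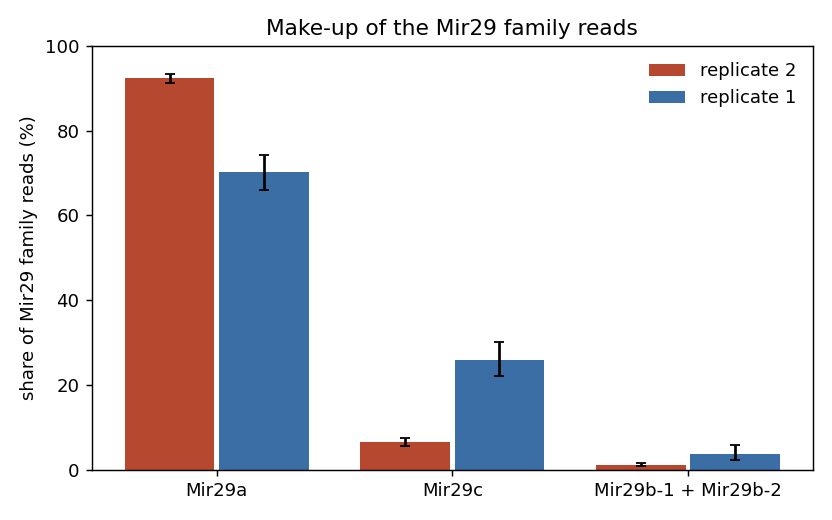
Share of the Mir29 family reads (%, y axis from 0) held by Mir29a, Mir29c and the Mir29b genes together, in replicate 2 (left bar of each pair) and replicate 1 (right bar), with exact Clopper-Pearson 95% intervals. Mir29a made up 92.3% and 70.3%, and Mir29c 6.50% and 25.9%.

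A ratio of members within a library does not depend on how libraries are scaled. There were 14.2 Mir29a reads per Mir29c read in replicate 2 (12.1 to 16.8) and 2.71 in replicate 1 (2.20 to 3.36). The odds ratio was 5.24 (4.00 to 6.85, two-sided Fisher's exact test p = 1.1e-32), so the proportion between these members of different clusters differed between the libraries. Reads are not independent molecules, and this test too compares libraries only. Within the chromosome 6 cluster, Mir29a had 105 reads per Mir29b-1 read in replicate 2 (69.4 to 168) and 30.5 in replicate 1 (16.9 to 61.8). Within the chromosome 1 cluster, Mir29c had 23.3 reads per Mir29b-2 read in replicate 2 (11.0 to 58.8) and 17.7 in replicate 1 (8.35 to 45.0), intervals that overlapped widely.

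The choice of scaling moved all genes together. The median log2 ratio of the 410 tested genes was −0.33 under TMM, and it shifted by 0.26 with DESeq2 size factors, by 0.59 with total reads and by −0.27 with totals that leave out the imprinted Dlk1-Dio3 microRNA cluster, Mir206 and Mir208a. Genes higher in replicate 2 made up 32.7% of the calls under TMM, and 44.1%, 54.0% and 24.0% under those scalings. Relative to the median of all tested genes, Mir29a stood 2.99 to 3.24 higher over 10 settings of the binomial comparison, and it was called higher in 10 of 10. Subtracting that median removes most of the scaling, so this range was bound to be narrow. Changes of filter or prior count also leave the reads and scaling of Mir29a as they were. The 10 settings are thus not separate checks. Relative to the same median, Mir29b-1 stood 1.00 to 1.22 higher, Mir29c 0.60 to 0.85 and Mir29b-2 0.21 to 0.28.

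**Figure D3:**
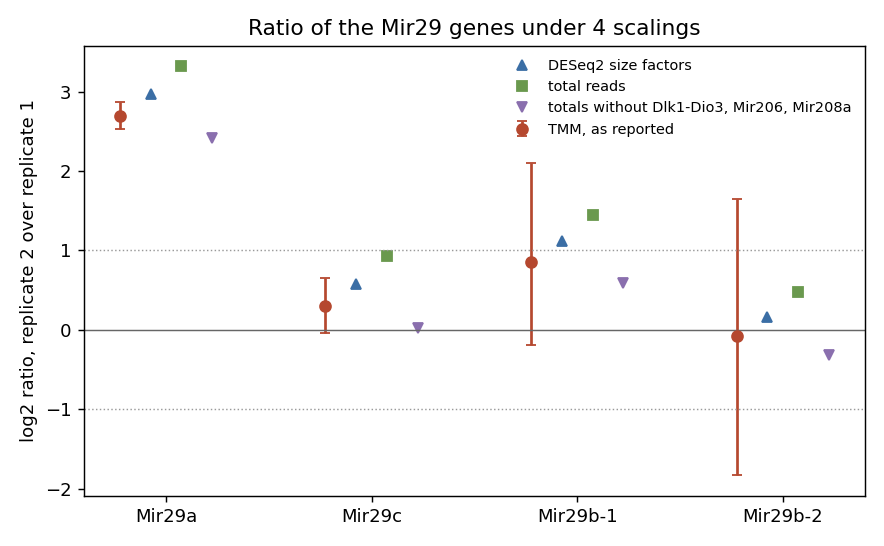
Log2 ratio of replicate 2 over replicate 1 for each Mir29 gene under TMM (circles, with 95% counting intervals), DESeq2 size factors, total reads, and totals without the Dlk1-Dio3 genes, Mir206 and Mir208a; dotted lines mark an absolute ratio of 1. Mir29a ran from 2.42 to 3.32 over these scalings, Mir29b-1 crossed the dotted line, and Mir29b-2 changed sign.

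The 5 microRNA genes nearest to Mir29a in log2(CPM + 1) over the 2 libraries were Mir150, Mir221, Mir132, Mir486 and Mir30c-2. Mir150, a lymphocyte microRNA, was nearest at a distance of 0.19, with 709 CPM in replicate 2 and 66.8 CPM in replicate 1. Distances of the others ran from 0.75 to 0.87, and the log2 ratios of the 5 genes from 1.58 to 3.39. Mir221, a regulator of cell cycle inhibitors, had 1267 CPM in replicate 2 and 78.3 CPM in replicate 1. Mir486, an Ank1 intronic microRNA of muscle and blood, had 478 CPM in replicate 2 and 102 CPM in replicate 1. With only 2 libraries, nearness means a like level in each and nothing more. The counts of Mir486 and Mir30c-2 are uncertain, since a 22 nt stretch of each recurs in another microRNA gene.

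**Figure D4:**
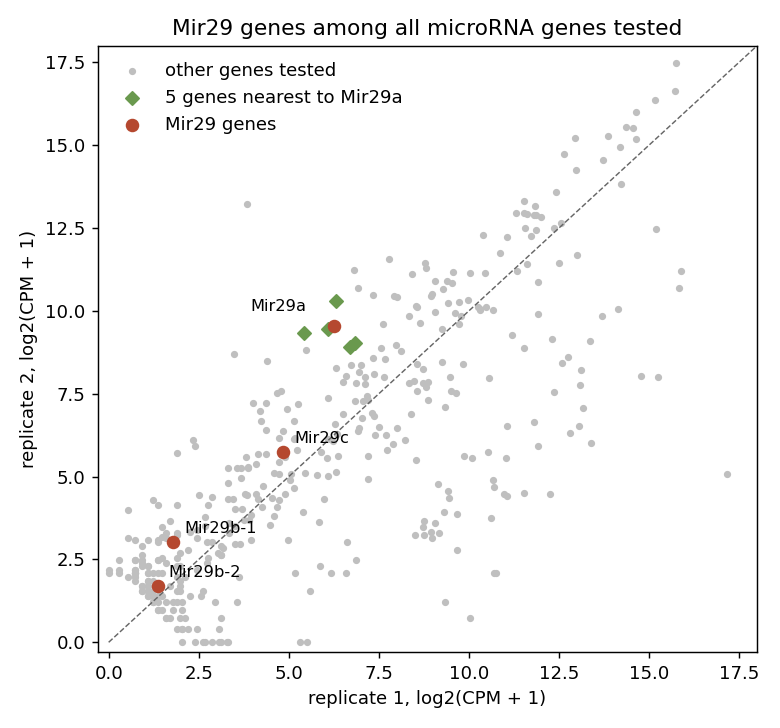
Level of each of the 410 tested microRNA genes in replicate 2 (y axis) against replicate 1 (x axis), both in log2(CPM + 1), with the Mir29 genes, the 5 genes nearest to Mir29a and the line of equal CPM (dashed). Mir29a lies well above the line beside Mir150, and Mir29c, Mir29b-1 and Mir29b-2 lie closer to it.

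Other microRNAs with reported roles in fibrosis did not move one way between the libraries. Of 10 genes reported to promote fibrosis, 9 could be tested, of which 4 were higher and 4 lower in replicate 2 (backgrounds 17.6% and 36.1%), with a median log2 ratio of 0.12 beside −0.33 over all tested genes. Mir214, transcribed with Mir199a-2 from a mesenchymal noncoding RNA, had 2784 CPM in replicate 2 and 5787 CPM in replicate 1, a log2 ratio of −1.68. Mir21a, which promotes fibroblast survival in mouse heart, had 1890 CPM and 3889 CPM, a log2 ratio of −1.67. Mir34a, a p53 target, had 2413 CPM in replicate 2 and 112 CPM in replicate 1, a log2 ratio of 3.80. The other higher genes were Mir155, Mir221 and Mir222, and the other lower ones Mir199a-2 and Mir199b, named after their values were seen. Of this list, 4 genes are also fibroblast markers and 1 a white blood cell marker. Counts of Mir199a-1, Mir199a-2 and Mir199b are uncertain, since each shares a 22 nt stretch with the others.

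Of 21 genes reported to restrain fibrosis or collagen, 20 could be tested, of which 6 were higher and 5 lower in replicate 2 (backgrounds 17.6% and 36.1%) and 9 did not pass, with a median log2 ratio of 0.52. The 3 most abundant did not pass. Mir26b, from an intron of the phosphatase gene Ctdsp1, had 24018 CPM in replicate 2 and 13480 CPM in replicate 1, a log2 ratio of 0.21. Mir30e had 7552 CPM in replicate 2 and 3714 CPM in replicate 1, a log2 ratio of 0.40, and Mir30d had 7626 CPM in replicate 2 and 3593 CPM in replicate 1, a log2 ratio of 0.46. Mir26b stood at −0.069 with totals that leave out the Dlk1-Dio3 genes, Mir206 and Mir208a, while Mir30d (1.09) and Mir30e (1.02) passed under total reads. Under total reads, 12 members of this list were higher (background 32.9%) and 2 lower (background 28.0%). Of this list, 3 genes are also skeletal muscle markers. Mir30e shares a 22 nt stretch with Mir30f. Such a stretch is also shared within the pairs Mir30c-1 and Mir30c-2, Mir26a-1 and Mir26a-2, Mir24-1 and Mir24-2, and Mir133a-1 and Mir133a-2. Counts of all these genes are uncertain. Among the calls, this touches Mir30c-1 and Mir30c-2 (higher) and Mir26a-1, Mir26a-2 and Mir133a-1 (lower). Mir29a was thus higher in the library where the fibroblast markers summed to 2807 CPM, against 5906 CPM in replicate 1. Of these sums, Mir214 alone held 2784 and 5787 CPM. Sums of the muscle, heart, vascular and blood markers are given above. The part of those tissues and cell types in the Mir29a difference was not tested.

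**Figure D5:**
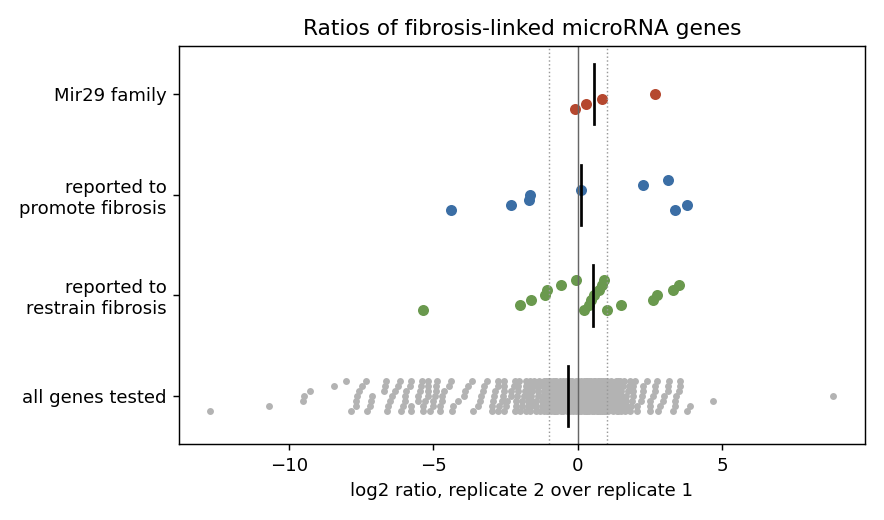
Log2 ratio of replicate 2 over replicate 1 (TMM) for each tested gene of the Mir29 family, of the lists reported to promote and to restrain fibrosis, and of all 410 genes tested; black bars are medians and dotted lines mark an absolute ratio of 1. The list medians are 0.12 and 0.52, and that of all genes is −0.33; points within a row are spread vertically only to separate them.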

How the data were processed

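Per the deposited description files, reads were assigned by the authors to mm10 with GENCODE M21. The deposited values are raw read counts per microRNA gene, with a column each for unstranded, sense and antisense reads, below 4 summary lines in the layout of STAR gene counts. Which aligner and trimming were used is not given in the sources used here. Sense counts were used, and all 2202 identifiers matched M21. The summary lines stayed out of totals (57.6% of reads in replicate 2 and 47.7% in replicate 1). TMM factors came from edgeR 4.0.16 (R 4.3.3) over genes with at least 10 reads in total. Each such gene had a two-sided exact binomial test, with Benjamini-Hochberg adjustment over 410 genes. Contrasting the 2 libraries of the single group leaves no residual degree of freedom for a quasi-likelihood fit. Log2 ratios used a prior count of 1. A count of 0 allows 3 reads (0.976 CPM for replicate 2, 0.673 CPM for replicate 1). Intervals cover counting error only, since no molecular identifiers are named. The comparison was tested on simulated data with counting noise only, which says nothing about spread between animals. Alternatives used DESeq2 1.42.0 size factors, other totals, filters, prior counts and the unstranded column. TMM over all genes was added after seeing the data. The named genes were all members, up to 3 of each fibrosis list by mean CPM, the 5 nearest to Mir29a, Mir206 and Mir208a. The members and lists were chosen with earlier results of these data known. Python 3.11.15, scipy 1.17.1 and Biopython 1.88 were used.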

Additional observations from a re-analysis of the deposited data

How the results depend on the processing

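The count of Mir29 members higher in replicate 2 was 1, and became 2 with DESeq2 size factors, total reads or TMM over all genes, where Mir29b-1 passed at 1.12, 1.44 and 1.04. It became 0 with the pooled-dispersion edgeR exact test, which also left 0 higher and 0 lower in both fibrosis lists. That test pools the spread of the same pair it compares, so it could hardly call any gene. The list of restrainers had 12 higher with total reads in place of 6. Its 5 lower genes became 3 with DESeq2 size factors, with at least 100 reads (15 tested), with the unstranded column (17 tested) and with TMM over all genes, and 2 with total reads. Mir29b-2 turned positive, at 0.17 with DESeq2 size factors, 0.47 with total reads, 0.072 with the unstranded column and 0.097 with TMM over all genes. In the settings where Mir29b-1 passed or Mir29b-2 turned positive, their reads were the same and only the library scaling differed. For the fibrosis lists, apart from the smaller number of genes tested under a stricter filter, the cause was not tested. The family share was 0.0816% without replicate 1 and 0.0107% without replicate 2. With 2 libraries these are only the shares of the library that is left, so they test nothing further. The odds ratio of Mir29a to Mir29c could not change with the unstranded column, where the members' counts equal the sense counts. No paired analysis was possible because the labels give a single group. Mir29b-1 and Mir29b-2 rest on at most 22 reads a library; depth and reads set aside for mapping to several places cannot be told apart. Windows of 18 nt shared 20.4% of Mir29b-1 and 7.04% of Mir29c, and 0 of Mir29a.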
